A study of Mus musculus with 16 samples.

Results

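The potassium channel genes described here are all genes whose platform symbol begins with Kcn, apart from Kcne1, Kcnq1 and Kcnj10, the channels of endolymph potassium recycling. On the Affymetrix MG-U74Av2 chip, 40 of the 8251 genes with a single symbol met this rule, with 48 of the 12422 probe sets tested. The rule used symbols and no measured value, and only probe sets with a single symbol were taken (10833 in all). The symbols of all 48 matched RefSeq by gene identifier. Kcne1 had 1 probe set under a single symbol and Kcnq1 had 2, while Kcnj10 had 0.

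Total RNA came from whole inner ears of newborn (P0) mice of the strain 129SvEv, either wild-type or COUP-TFI-/-. COUP-TFI is an orphan nuclear receptor encoded by Nr2f1, and the null mice lack it in every tissue from conception. RNA of several animals was pooled because each ear yields little. Chips were hybridized on 2 occasions, called sets A and B. In each, 1 pool per genotype was hybridized to duplicate chips. The labels name the chips A1, A2, B1 and B2 for each genotype. The letter was read here as the set and the number as the duplicate, which neither the labels nor the methods spell out. There were thus 2 pools and 4 chips per genotype. Duplicate chips show the spread of the array, and only the difference between pools includes the animals. Set, pool and time of hybridization cannot be told apart. A whole inner ear holds sensory epithelium, lateral wall, ganglion neurons, glia, vessels, cartilage and bone, so fewer cells of a type and less RNA per cell cannot be told apart.

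Potassium channels let potassium leave or enter cells along its gradient and so set the resting potential and the shape of electrical signals. Voltage-gated (Kv) channels assemble from pore-forming subunits, with beta subunits and silent subunits that alter the current. Inward rectifiers (Kir), which include G-protein-gated and ATP-sensitive forms, and two-pore domain leak channels hold the membrane near rest. Calcium-activated channels couple the current to calcium entry. In the ear, hair cells and spiral ganglion neurons rely on Kv and calcium-activated channels to time their responses, and the lateral wall uses potassium channels to build the endolymph potential.

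The authors normalized each chip by 2 programs, GCRMA (log2 values) and dChip (linear intensities, put on the log2 scale here). Duplicates were averaged, and limma tested the pool means with genotype and set as terms and Benjamini-Hochberg adjustment over all probe sets at 0.05. A probe set that passed is called below. Genotype differences are COUP-TFI-/- minus wild-type, and set differences are set A minus set B, both in log2 units. The standard errors (SE) are limma's, which draw mostly on the variance of the whole array.

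The deleted gene marked the genotypes. Nr2f1 had GCRMA pool means of 8.78 and 7.82 in wild-type sets A and B and of 5.17 and 4.68 in COUP-TFI-/-, a difference of -3.37 (adjusted p = 5.9e-11 from limma). The median value of a chip was 7.20 to 7.23 with GCRMA and 291 to 305 with dChip. Across probe sets, the correlation of duplicate chips was 0.996 to 0.997 with GCRMA and 0.993 to 0.995 with dChip. Sets differed more than genotypes. With GCRMA, the median absolute difference over all probe sets was 0.16 between sets and 0.06 between genotypes. For the channel probe sets these medians were 0.15 and 0.06, and their median standard deviation between duplicates was 0.09. Hair cell markers had mean GCRMA values of 7.17 to 7.30 in the 4 pools, against 7.17 to 7.18 for all probe sets. Detection calls were not used here, so these values do not say which markers or channels were expressed.

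Many channel probe sets were dim. Of the 48, 22 (45.8%) were among the 25% of all probe sets with the lowest mean GCRMA value. The mean wild-type GCRMA values ran from 3.64 to 8.70 with a median of 6.06. By family, they ran from 4.17 to 7.25 for the 8 Kv1 probe sets, from 3.64 to 8.22 for the 4 Kv4 probe sets, from 5.14 to 7.48 for the 5 Kv beta probe sets, from 3.97 to 8.28 for the 15 inward rectifier probe sets, and from 5.44 to 8.52 for the 5 two-pore domain probe sets. Probe sets hybridize with different strength, so these ranges do not order the genes by abundance.

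No channel probe set was called between the genotypes with either normalization. With GCRMA the count was 0 of 48, against a background of 0.105% of all probe sets, and with dChip it was 0 of 48 against 0.00805%. At an unadjusted p under 0.05, 1 member passed with each normalization, against 569 and 264 of all probe sets, and it was a Kcna5 probe set in both. By the methods' 2-way analysis with its thresholds (genotype p under 0.01 and interaction p over 0.01), 1 of 48 passed with GCRMA, where 2.06% of all did, and 2 of 48 with dChip, where 2.00% did. The median genotype difference of the 48 was 0.02 with GCRMA, with a range from -0.14 to 0.34, against a median of 0.00 for all probe sets. With dChip the median was -0.00 and the range ran from -0.25 to 0.31, against a median of -0.01 for all. With GCRMA, 30 of 48 differences were above 0 (62.5%, against 50.3% of all), and with dChip 24 were (50%, against 46.3%). The GCRMA difference had the same sign in sets A and B for 24 of 48 members (50%, against 45.6% of all). The 95% interval of the genotype difference lay within 0.5 log2 units of 0 for 47 of 48 members with GCRMA and for 42 with dChip.

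**Figure D1:**
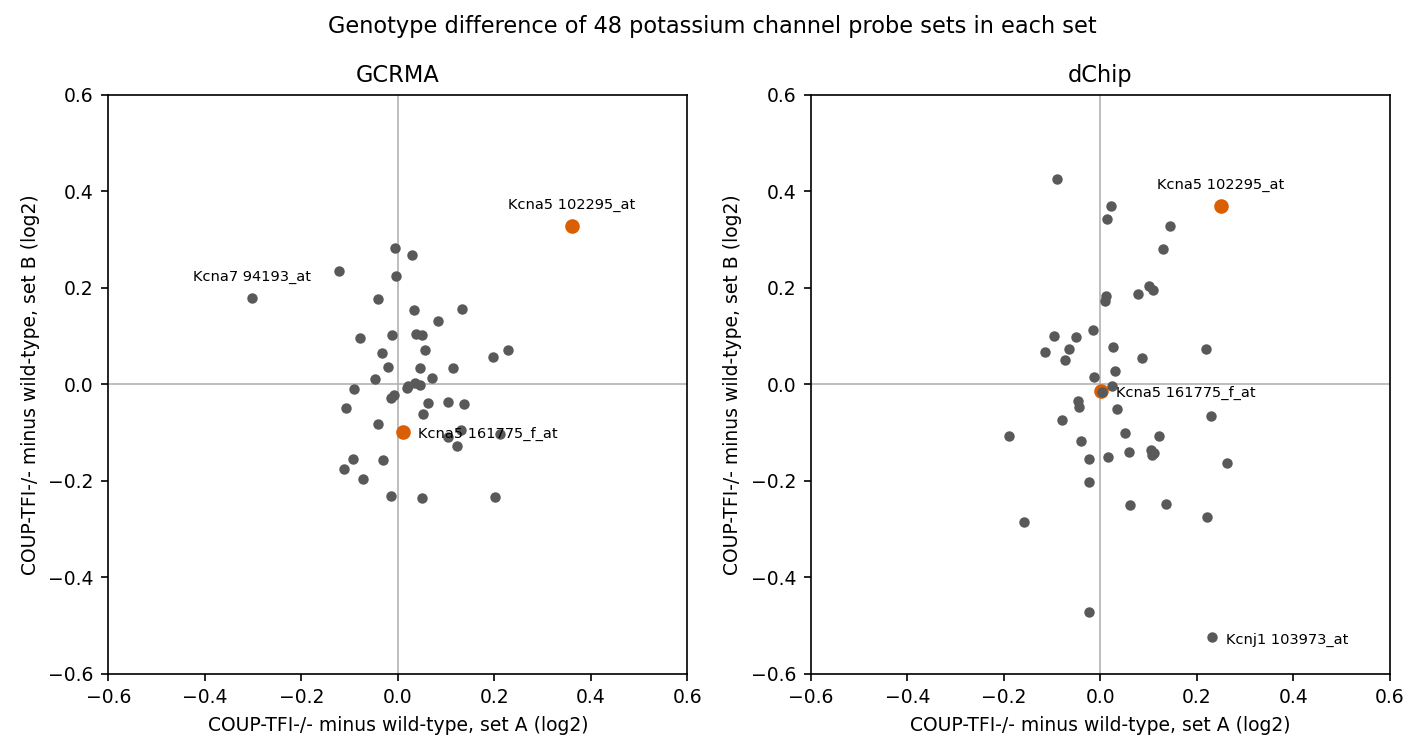
Each point is 1 of the 48 probe sets, with its COUP-TFI-/- minus wild-type difference in log2 units in set A (horizontal axis) and in set B (vertical axis), for GCRMA (left) and dChip (right), and both Kcna5 probe sets are in orange. Points lie in all 4 quadrants, and Kcna5 102295_at (0.36 in set A and 0.33 in set B with GCRMA) lies away from the others at the upper right with GCRMA.

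Kcna5 encodes a Kv1 subunit known from the repolarizing current of atrial muscle and from vascular smooth muscle. With GCRMA, its probe set 102295_at read 5.61 and 5.73 on the wild-type chips of set A and 5.77 and 5.82 on those of set B. The COUP-TFI-/- chips of set A read 6.12 and 5.94, and those of set B 6.12 and 6.13. All 4 COUP-TFI-/- chips were above all 4 wild-type chips, a separation found in 2.26% of all probe sets in either direction. The difference was 0.34 (SE 0.10, 95% interval 0.14 to 0.55), or 1.27-fold, and did not pass the adjustment (unadjusted p = 0.00243 and adjusted p = 0.479 from limma). It ranked 63 among all probe sets by genotype p. The probe set was rather dim, with a mean at percentile 25.3 of all probe sets with GCRMA and 16.9 with dChip. With dChip, the wild-type intensities were 79.5, 78.0, 96.0 and 89.9 on chips A1, A2, B1 and B2, and the COUP-TFI-/- intensities were 94.1, 93.2, 129 and 111. Within each set the COUP-TFI-/- chips were higher, but across sets the groups overlapped. The dChip difference was 0.31 (SE 0.10, interval 0.05 to 0.57, unadjusted p = 0.0275 and adjusted p = 1.00 from limma). Kcna5 102295_at was the only member to pass the methods' 2-way thresholds with both normalizations. Its genotype p by that analysis, which takes chips as replicates, was 0.00356 with GCRMA and 0.00647 with dChip. Of all probe sets, 2.06% and 2.00% passed.

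The other Kcna5 probe set, 161775_f_at, showed no such separation. It was dimmer with GCRMA, with a mean at percentile 6.21 of all probe sets, and at percentile 16.8 with dChip. Whether a genotype difference could show at this level was not tested. The letter f marks probes that match a family of sequences. Its GCRMA values were 4.08, 4.18, 4.06 and 4.37 in wild-type and 4.15, 4.14, 4.15 and 4.08 in COUP-TFI-/-, and the groups overlapped. Its genotype difference was -0.04 with GCRMA (interval -0.25 to 0.16) and -0.01 with dChip (interval -0.26 to 0.25). The 102295_at difference was 0.39 log2 units above that of 161775_f_at with GCRMA and 0.32 above it with dChip. The difference between the probe sets was not tested.

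The mean of the muscle markers was higher in COUP-TFI-/- in set B alone. Of 21 probe sets of striated muscle markers, 2 were called higher in COUP-TFI-/- and 0 lower with GCRMA, where 9 of all 12422 were higher, and their median difference was 0.37. With dChip 0 were called, where 0 of all were higher, and the median was 0.38. Their mean GCRMA value in set A was 7.92 in wild-type and 7.93 in COUP-TFI-/-. In set B it was 7.47 in wild-type and 8.19 in COUP-TFI-/-. The mean muscle difference was thus 0.01 in set A, against 0.72 in set B, whereas that of Kcna5 102295_at was 0.36 and 0.33. The 8 probe sets of smooth muscle and vessel markers, none of them called, had mean differences of 0.08 and 0.16 in sets A and B. Their part in the Kcna5 values was not tested.

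COUP-TFI is known to bind repeats of the half-site AGGTCA, so the promoters of the channel genes were searched for these letters on both strands. The windows cover 250 bases before to 50 after the start and come from RefSeq (GRCm38.p6), which held 42 windows for 33 of the 40 genes. The half-site was found in 1 window, that of Kcnh1, against 16.3% of all 32851 windows and 18.1% of genes with a window. The Kcna5 window, at chr6:126535506-126535805 on the minus strand, is shown because a Kcna5 probe set had the smallest genotype p of the members, and it holds no match. The Kcnh1 window, at chr1:192190527-192190826 on the plus strand, is shown for its match, in capitals, which begins at position -223 from the start and reads AGGTCA on the opposite strand. Matching letters do not show binding, and windows without a match say nothing of sites elsewhere.
Kcna5: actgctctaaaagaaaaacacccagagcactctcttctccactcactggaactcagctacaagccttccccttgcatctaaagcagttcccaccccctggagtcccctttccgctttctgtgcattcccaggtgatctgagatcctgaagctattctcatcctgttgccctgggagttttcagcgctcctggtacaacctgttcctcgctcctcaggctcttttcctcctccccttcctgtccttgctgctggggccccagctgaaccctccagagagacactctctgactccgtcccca
Kcnh1: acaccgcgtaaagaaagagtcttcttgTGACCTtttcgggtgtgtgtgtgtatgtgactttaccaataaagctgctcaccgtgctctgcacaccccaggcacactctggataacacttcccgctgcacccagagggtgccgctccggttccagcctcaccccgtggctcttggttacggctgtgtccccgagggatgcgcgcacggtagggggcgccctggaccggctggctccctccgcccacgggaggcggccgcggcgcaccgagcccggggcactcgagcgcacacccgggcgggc
Kcnh1, an ether-a-go-go type channel subunit, had a genotype difference of 0.07 with GCRMA (interval -0.13 to 0.27) and 0.05 with dChip (interval -0.21 to 0.31).

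Among the other Kv subunits, no genotype difference was called, and with dChip they reached 0.24 in Kcnd2 98364_at (interval -0.03 to 0.51) and -0.22 in Kcna3 (interval -0.48 to 0.04). With GCRMA these were 0.03 and 0.08. Kcna1, a subunit of axonal low-threshold channels, had -0.08 with GCRMA and -0.08 with dChip. The 5 probe sets of the cytoplasmic beta subunits, which bind Kv1 channels, had a median of -0.12 with GCRMA and -0.03 with dChip. Of these, Kcnab3 had -0.12 with GCRMA (interval -0.33 to 0.08) and -0.09 with dChip, and Kcnab1 102725_at had 0.11 and 0.18. The other Kcnab1 probe set, 162087_f_at, had 0.01 with GCRMA and -0.11 with dChip. Kcnd1, a subunit of the transient A-type current, had 0.09 with GCRMA (interval -0.11 to 0.30) and 0.05 with dChip. The other Kcnd2 probe set, 99339_r_at, had 0.01 with GCRMA and 0.17 with dChip. Kcnd3 of the same family overlapped with GCRMA, but with dChip its COUP-TFI-/- chips (436 to 457) were all above its wild-type chips (411 to 433), with a difference of 0.07 (interval -0.18 to 0.32).

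The inward rectifiers and leak channels likewise held no call. The 15 inward rectifier probe sets had a median genotype difference of 0.05 with GCRMA and -0.01 with dChip. Kcnj5, a G-protein-gated subunit of the heart, had dChip intensities of 173 to 196 on the wild-type chips and of 197 to 206 on the COUP-TFI-/- chips, without overlap, and passed the 2-way thresholds with dChip, as Kcna5 did. Its difference was 0.15 with each normalization (interval -0.12 to 0.41 with dChip), and with GCRMA the groups overlapped. Kcnk1, a two-pore domain leak channel of weak inward rectification, had dChip intensities of 539 to 627 in wild-type and of 652 to 701 in COUP-TFI-/-, with a difference of 0.20 (interval -0.06 to 0.47). Kcnj5, Kcnk1 and Kcnd3 were the only members whose genotypes did not overlap with dChip, 3 of 48, where 1.89% of all probe sets were without overlap. Kcnj5 and Kcnd3 are named because of these values. The ATP-sensitive subunits Kcnj8 and Kcnj11, known from vessels and from pancreatic and neural cells, differed by 0.06 and -0.02 with GCRMA and by 0.00 and -0.04 with dChip. The unadjusted limma p was 0.221 for Kcnj5, 0.106 for Kcnk1 and 0.517 for Kcnd3.

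After adjustment, no member was called for a genotype difference that depended on the set. Tested on the 8 chips, the interaction of genotype and set was called in 0 of 48 with GCRMA (0.958% of all) and in 0 of 48 with dChip (0.459% of all). With 1 pool per genotype and set, this test sees the spread of duplicates and not that of pools. At an unadjusted p under 0.05, 5 members passed with GCRMA and 6 with dChip, against 16.4% and 21.1% of all probe sets. The lowest adjusted p was that of Kcnj1 103973_at with dChip (0.0546 from limma). Kcnj1 encodes ROMK, the potassium secretion channel of the kidney, and the COUP-TFI-/- minus wild-type difference of this probe set with dChip was 0.23 in set A, against -0.52 in set B. With GCRMA these values were 0.20 and 0.06. The lowest unadjusted p with GCRMA was that of Kcnj8 (0.00787 from limma, adjusted p = 0.152), the pore of the ATP-sensitive channel of vessels, with -0.12 in set A against 0.23 in set B.

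The sets differed for a minority of members. With GCRMA, 8 of 48 probe sets (16.7%) were called between sets A and B, against 25.8% of all. Of these, 4 were higher in set A (8.33%, against 13.6% of all) and 4 were lower (8.33%, against 12.2%). With dChip, 4 of 48 (8.33%) were called, against 11.7% of all. Here 1 was higher in set A, where 6.76% of all were, and 3 were lower, where 4.90% of all were. At an unadjusted p under 0.05, 13 members (27.1%) passed with each normalization, against 37.6% of all probe sets with GCRMA and 33.0% with dChip. Only Kcnma1 and Kcns1 were called with both normalizations, 2 of 48 against 8.48% of all. With GCRMA, 34 of 48 set differences were below 0 (70.8%, against 53.2% of all), and with dChip 25 were (52.1%, against 49.2%).

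Kcnma1 encodes the pore of the large-conductance calcium- and voltage-activated (BK) channel, which carries a fast current of inner hair cells and is also found in neurons and smooth muscle. With GCRMA, its probe set 97759_at read 7.34 and 7.27 in wild-type and 7.41 and 7.40 in COUP-TFI-/- on the chips of set A. On the chips of set B it read 6.46 and 6.47 in wild-type and 6.41 and 6.30 in COUP-TFI-/-. The 2 sets did not overlap. Lack of overlap between sets was not limited to called members, and Kcnh2, which was not called, had none with either normalization. The share of all probe sets without such overlap was not counted. The set difference was 0.94 (SE 0.10), or 1.92-fold (adjusted p = 7.65e-06 from limma), and it was 0.84 in wild-type and 1.05 in COUP-TFI-/-. With dChip it was 0.75 (SE 0.10, adjusted p = 0.0169 from limma). The genotype difference of Kcnma1 was -0.00 with GCRMA (interval -0.21 to 0.21) and 0.15 with dChip (interval -0.11 to 0.41). Kcnmb1, its smooth muscle beta subunit, was not called, with set differences of 0.17 and 0.28, though its sets did not overlap with either normalization.

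Kcns1, a silent Kv subunit that forms channels only together with others, was lower in set A. With GCRMA, the set A chips of 101624_at read 6.85 and 6.68 in wild-type and 6.66 and 6.72 in COUP-TFI-/-. The set B chips read 7.09 and 7.17 in wild-type and 7.26 and 7.19 in COUP-TFI-/-. The sets did not overlap, and the difference was -0.45 (SE 0.10, adjusted p = 0.00317 from limma). With dChip it was -0.64 (SE 0.10, adjusted p = 0.0235 from limma). The other silent subunit, Kcns2, had set differences of 0.16 with GCRMA and 0.36 with dChip and was not called.

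**Figure D2:**
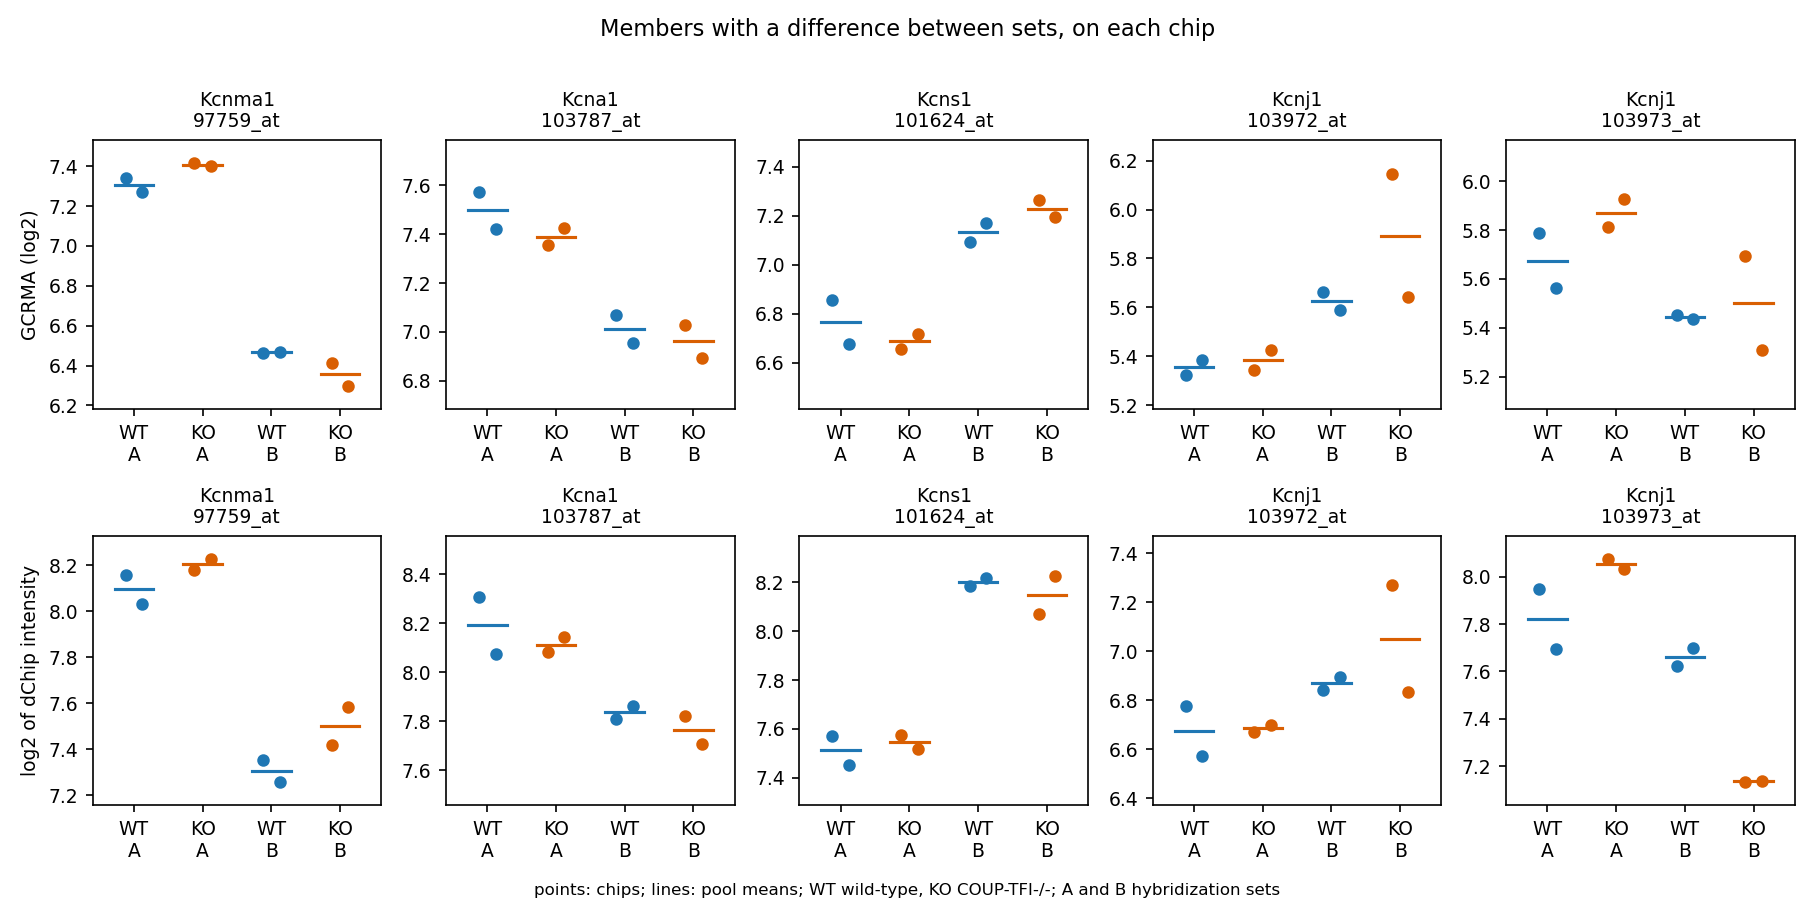
Points are the chips and lines the pool means of 5 probe sets, with GCRMA values in the upper row and log2 dChip intensities in the lower row, and each panel has its own vertical axis of at least 1 log2 unit. Wild-type (WT) is blue and COUP-TFI-/- (KO) is orange. The set A chips of Kcnma1 and Kcna1 lie above those of set B, those of Kcns1 lie below, and the Kcnj1 probe sets run in opposite directions.

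The remaining set calls were made with 1 normalization each. Kcna1 103787_at read 7.57, 7.42, 7.35 and 7.43 on the chips of set A and 7.07, 6.96, 7.03 and 6.90 on those of set B with GCRMA, wild-type before COUP-TFI-/-. It was 0.46 higher in set A with GCRMA (SE 0.10, adjusted p = 0.00257 from limma) and 0.35 with dChip (adjusted p = 0.0798 from limma). Its chips did not overlap between sets with either. Kcnk2, the mechanosensitive leak channel TREK, read 7.59 to 7.74 on the set A chips and 7.27 to 7.45 on the set B chips with GCRMA. It was 0.31 higher with GCRMA (adjusted p = 0.0279 from limma) and had 0.12 with dChip, where the sets overlapped. Kcnab3 read 6.19 to 6.42 on the set A chips and 6.56 to 6.82 on the set B chips, a difference of -0.30 with GCRMA (adjusted p = 0.0282 from limma) and -0.34 with dChip, again without overlap between sets. With dChip alone, Kcnd2 98364_at (-0.51) and Kcnab2 102892_at (-0.47) were called, at adjusted p = 0.0418 and 0.0455 from limma. The Kcnd2 probe set was very dim, with dChip intensities of 19.3 to 40.9 and a mean at percentile 2.93 of all probe sets. With GCRMA, Kcnab2 102892_at had 0.06, the opposite sign. The other Kcnab2 probe set, 162182_f_at, had -0.15 with GCRMA and 0.14 with dChip, without a call. Probe sets Kcnd2 98364_at, Kcnab2 102892_at and Kcnj1 103973_at are named because of their set calls. In the families without a call, the set differences with the same sign throughout were largest for Kcnh2, an ERG channel subunit of heart and neurons (-0.19 with GCRMA and -0.26 with dChip), and for Kcnn1, a small-conductance calcium-activated subunit (0.18 and 0.20).

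Neuronal genes differed between the sets too. Of 19 probe sets of neuron markers, 15 were called higher in set A and 1 lower with GCRMA, where 13.6% of all were higher and 12.2% lower. Their median set difference was 0.48. With dChip 7 were higher and 0 lower, where 6.76% of all were higher and 4.90% lower. Their mean GCRMA value was 8.19 in each genotype in set A, and 7.80 in wild-type and 7.70 in COUP-TFI-/- in set B. Of 8 probe sets of supporting cell markers, 7 were called higher in set A and 0 lower with GCRMA, with a median of 0.41. With dChip 3 were higher and 0 lower, with a median of 0.38. For the 48 channel probe sets the median set difference with GCRMA was -0.08, against -0.02 for all probe sets. Of 7 probe sets of hair cell markers, 1 was called higher in set A and 1 lower with GCRMA. Of 10 probe sets of Schwann cell markers, 1 was higher and 2 were lower. The channel probe sets were called in both directions, with Kcns1, Kcnab3, Kcnj1 103972_at and Kcnj9 161799_r_at lower in set A with GCRMA. The part of the tissue makeup in the set differences of the channels, higher or lower, was not tested.

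Kcnj9 encodes GIRK3, a G-protein-gated inward rectifier subunit of neurons, and its probe set 161799_r_at was split by set with GCRMA alone. In set A the GCRMA values were 5.33 and 5.56 in wild-type and 5.70 and 5.43 in COUP-TFI-/-. In set B they were 8.12 and 8.30 in wild-type and 7.91 and 8.26 in COUP-TFI-/-. The set difference was -2.64 (SE 0.10, adjusted p = 2.2e-10 from limma), a 6.23-fold lower value in set A, and it ranked 1 in size among all 12422 probe sets. The dChip intensities of the same chips did not follow. They were 2818, 3277, 3275 and 3620 in wild-type and 3242, 3306, 3063 and 3156 in COUP-TFI-/- on chips A1, A2, B1 and B2. The sets overlapped, and the dChip set difference was -0.05 (SE 0.11, adjusted p = 0.781 from limma). The genotype differences were -0.00 with GCRMA (interval -0.22 to 0.21) and -0.02 with dChip (interval -0.31 to 0.27).

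The second Kcnj9 probe set, 98332_at, did not show the split with either normalization. Its GCRMA values were 6.91 and 6.73 in wild-type and 6.77 and 6.86 in COUP-TFI-/- in set A, and 6.82 and 7.03 in wild-type and 7.11 and 6.95 in COUP-TFI-/- in set B. The sets overlapped. The set difference was -0.16 with GCRMA (adjusted p = 0.24 from limma) and 0.10 with dChip (adjusted p = 0.637 from limma). Genotype differences were 0.05 with both.

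**Figure D3:**
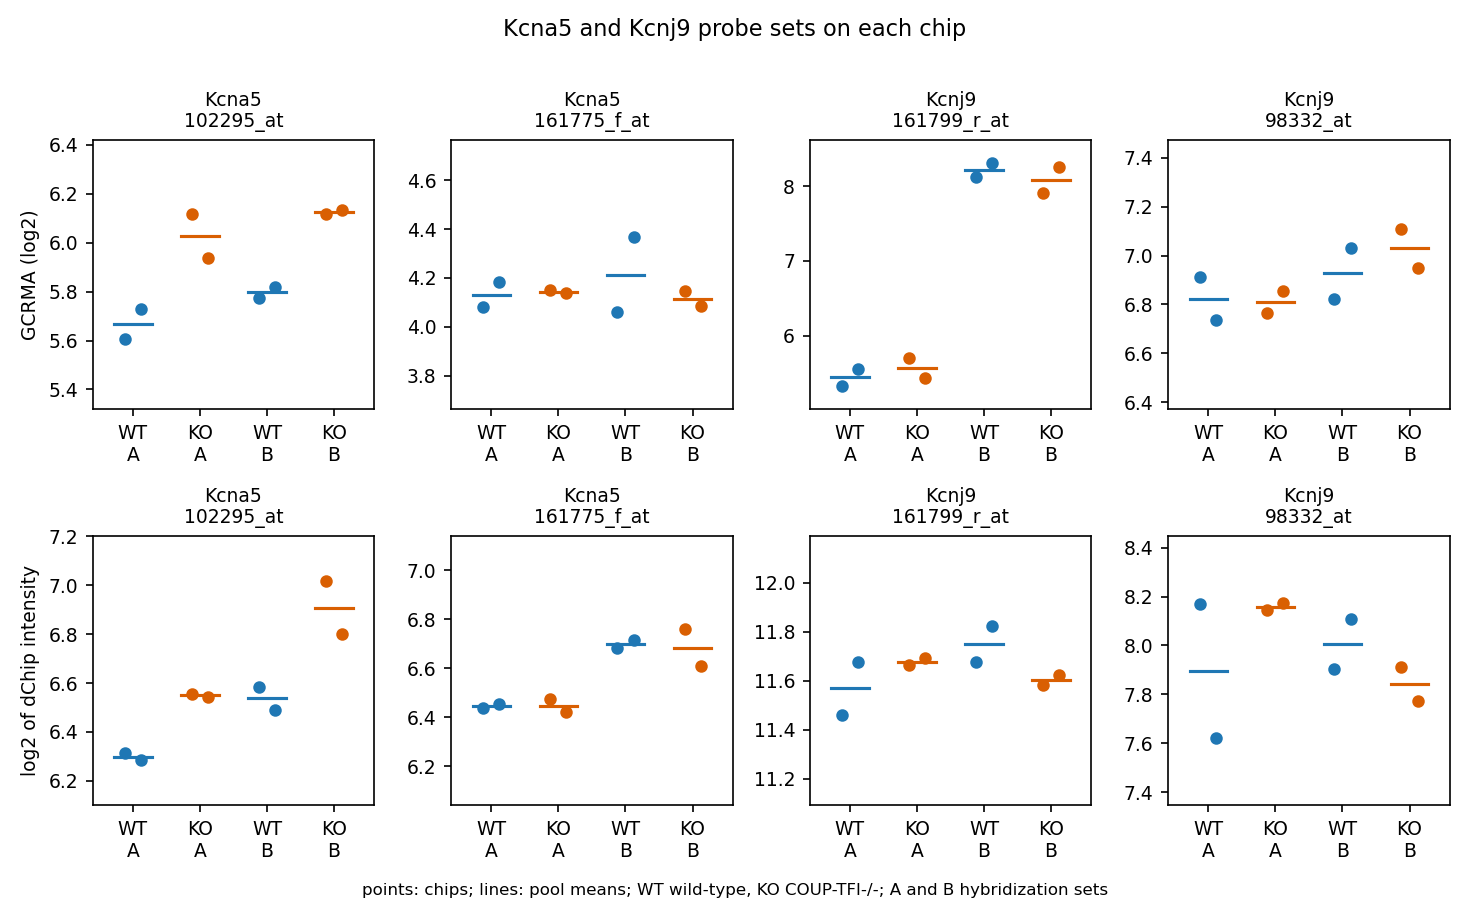
Points are the chips and lines the pool means of both probe sets of Kcna5 and of Kcnj9, with GCRMA values in the upper row, log2 dChip intensities in the lower row, and an axis of its own in each panel. Wild-type (WT) is blue and COUP-TFI-/- (KO) is orange. Kcna5 102295_at is higher in COUP-TFI-/- in both sets, and Kcnj9 161799_r_at has a set difference of -2.64 with GCRMA and one smaller than the spread of its chips with dChip.

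The gap between the normalizations was unusual for the array. For Kcnj9 161799_r_at the GCRMA set difference minus the dChip set difference was -2.59, which ranked 3 in size among 12421 probe sets. It was the only member with a gap over 1 log2 unit in size, 1 of 48, where 99 of all probe sets (0.797%) had one. The letter r marks probe sets for which some rules of probe selection were dropped. Of 900 such probe sets on the array, 55 (6.11%) had a gap over 1, against 32 of 9614 (0.333%) without a letter. The other member with this letter, Kcnd2 99339_r_at, had set differences of 0.25 with GCRMA and 0.64 with dChip. Across the 48 members, the set differences of the normalizations had a correlation of 0.369, and 0.662 over the 47 without Kcnj9 161799_r_at, against 0.719 over all probe sets. These correlations run across probe sets of the same chips, which are not independent replicates. The median absolute gap was 0.13 for the members and 0.12 for all probe sets.

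**Figure D4:**
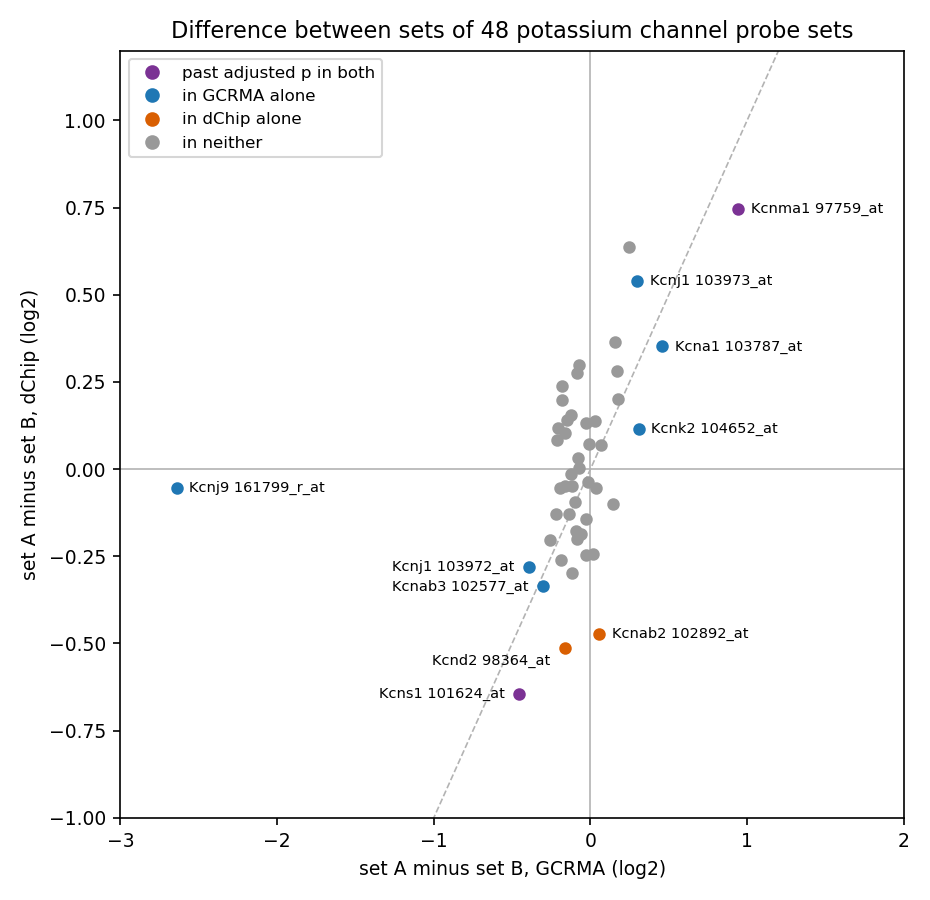
Each point is 1 of the 48 probe sets, with its set A minus set B difference in log2 units with GCRMA (horizontal axis) and dChip (vertical axis, on a wider scale), colours show which normalization called it at an adjusted p under 0.05, and the dashed line marks equal differences. Kcnma1 and Kcns1 were called with both, and Kcnj9 161799_r_at lies at -2.64 with GCRMA and near 0 with dChip.

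Kcnj9 was not alone in having probe sets that differed. Of the 8 genes with a pair of probe sets (Kcna5, Kcnab1, Kcnab2, Kcnd2, Kcnj1, Kcnj6, Kcnj9 and Kcnj15), the set differences of the pair had the same sign in 4 with GCRMA and in 2 with dChip. For the genotype difference this count was 5 with GCRMA and 2 with dChip. For Kcnj1, the members of the pair were called in opposite directions with GCRMA. Probe set 103972_at read 5.32, 5.39, 5.66 and 5.59 in wild-type and 5.34, 5.43, 6.15 and 5.64 in COUP-TFI-/- on chips A1, A2, B1 and B2, and was lower in set A by -0.39 (SE 0.10, adjusted p = 0.0097 from limma). Probe set 103973_at read 5.79, 5.56, 5.45 and 5.44 in wild-type and 5.81, 5.93, 5.69 and 5.31 in COUP-TFI-/-, and was higher in set A by 0.30 (SE 0.10, adjusted p = 0.033 from limma). With dChip the directions were the same (-0.28 and 0.54), without a call. Kcnd2, another A-type subunit, had a pair of opposite directions as well, with -0.16 and 0.25 with GCRMA and -0.51 and 0.64 with dChip. Both Kcnd2 probe sets were very dim, with mean GCRMA values at percentiles 3.76 and 2.67 of all probe sets. Which transcript regions the probes cover was not examined.

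Other channel and transport genes are given for comparison. Over all probe sets, the shares called higher and lower in set A were 13.6% and 12.2% with GCRMA and 6.76% and 4.90% with dChip. The excluded Kcne1 had a GCRMA genotype difference of -0.09, and the Kcnq1 probe sets had -0.08 and 0.02. Of 8 sodium channel (Scn) probe sets, 0 were called between genotypes and 3 were called higher in set A and 0 lower with GCRMA, with a median set difference of 0.09. With dChip 4 were higher and 0 lower. The largest were the Scn1a probe sets, at 0.98 and 0.67 with GCRMA and 1.43 and 1.07 with dChip. Scn1a encodes a neuronal sodium channel. Of 13 calcium channel (Cacn) probe sets, 0 were called between genotypes, 1 was higher in set A and 1 lower with GCRMA, and with dChip 0 were called. Of 18 probe sets of proteins that bind or regulate channels, 0 were called between genotypes, and 5 were higher in set A and 0 lower with GCRMA. With dChip 3 were higher and 1 lower. Those higher with GCRMA included Wnk1, a kinase of ion transport (2.08), and Akap9, an anchoring protein that joins a kinase to Kcnq1 channels (1.45). Of 9 probe sets of potassium pumps and cotransporters, 0 were called between genotypes, 2 were higher in set A and 1 lower with GCRMA, and with dChip 1 was higher and 0 lower. The highest with GCRMA was Slc12a2, the cotransporter that loads potassium into marginal cells of the stria vascularis (0.89).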

How the data were processed

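The processed values of 8 Affymetrix MG-U74Av2 chips were used, each in 2 normalizations, 16 columns in all. The authors made the GCRMA values, which are log2 values per probe set, and the dChip values, which were deposited as linear intensities. The versions of these programs are not given in the sources used here. Raw probe signals were not used, so no step from probe to probe set was redone. The 66 Affymetrix controls were left out, as was 1 probe set without dChip values. The 89 dChip intensities under 1 were set to 1 before log2 transformation, and 0 of them belonged to a potassium channel probe set.

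Probe sets were named from the platform annotation, in which 396 had several symbols and 1193 had none. The potassium channel genes, their families and the other gene lists were chosen with earlier results of these data known. Genes were named with values if they were Kcna5 or Kcnj9, if they were called for genotype, for the interaction, or for set in both normalizations, or if they had the largest difference of their family with the same sign throughout. Kcnd2 98364_at, Kcnab2 102892_at, Kcnj1 103973_at, Kcnj5, Kcnj8, Kcnd3, Kcna3, Kcnab1 102725_at and the members of the interaction counts were added after their values were seen. The other members named fill out their families.

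Duplicate chips were averaged, and the 4 pool means were fitted with genotype and set in limma 3.58.1 (R 4.3.3). This leaves 1 residual degree of freedom, to which the prior added 14.3 with GCRMA and 4.55 with dChip. The interaction was fitted on the 8 chips, since the pool means leave no residual for it. All tests were 2-sided. According to the methods, each set held 1 pool per genotype, and pools of the same set were taken here as a pair. The set A minus set B differences of the genotypes had a correlation of 0.752 with GCRMA and 0.688 with dChip across probe sets. Precision is limited by how many pools and chips there were. The script was tested on simulated data. Alternatives covered the block, the chips as replicates, the methods' 2-way analysis of variance, the prior, quantile normalization, dim probe sets, the dChip floor and pseudocount, and leaving out each chip.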

Additional observations from a re-analysis of the deposited data

Results flagged for a closer look

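In 10 of 192 groups of 4 chips (48 probe sets, both genotypes and both normalizations), 1 chip stood apart from the other 3 by more than Dixon's 95% limit for 4 values, and chance gives about 1 in 20. The value is the gap to the nearest chip divided by the range of the group. With GCRMA the chips were Kcna5 102295_at, COUP-TFI-/- A2, the lowest (0.925), Kcnh2, wild-type B2, the highest (0.835), Kcnj15 99974_at, wild-type B2, the highest (0.86), and Kcnk7, COUP-TFI-/- A2, the highest (0.89). For Kcna5 102295_at the chip read 5.94, against 6.12 to 6.13 on the other COUP-TFI-/- chips, and it remained above the wild-type chips. With dChip they were Kcnab2 162182_f_at, wild-type A2, the lowest (0.952), Kcne1l, wild-type A1, the highest (0.862), Kcnh1, COUP-TFI-/- A1, the lowest (0.83), Kcnj11, COUP-TFI-/- A2, the lowest (0.913), Kcnn4, COUP-TFI-/- B1, the highest (0.867), and Kcns2, wild-type B1, the lowest (0.903).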

How the results depend on the processing

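The number of potassium channel probe sets called between genotypes was 0 under every alternative for both normalizations, with 1 exception. Chips taken as replicates in limma gave 1 with GCRMA, Kcna5 102295_at (adjusted p = 0.021), where 159 of all 12422 probe sets were called. Each set held 1 pool per genotype by design, and without set as a block the count was 0 with each normalization. That setting called 0 of all 12422 probe sets with GCRMA and 0 of all 12421 with dChip. Not even the deleted gene was called, so this count says nothing of the members. The Kcna5 102295_at difference lay between 0.30 and 0.39, with an adjusted p of 0.021 to 1.00.

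The number called between sets with GCRMA was 8, where 3205 of all 12422 probe sets were called. It was 15 with chips as replicates and 14 with the pool as a random block, where 5731 and 5054 of all were called. Without 1 chip it was 6 to 7, where 2046 to 3309 of all were called. With dChip the number was 4, where 1449 of all 12421 were called. It was 21 and 16 under the same settings, where 6275 and 4727 of all were called. By the methods' 2-way analysis it was 13, where 4891 of all were called. With dChip values under 16 set to 16 it was 0, where 0 of all 12421 probe sets were called and the cause was not tested. Without 1 chip it was 1 to 6, where 570 to 2293 of all were called. Without wild-type A1 or COUP-TFI-/- A1 it was 2 (Kcnma1 and Kcns1), and without COUP-TFI-/- B2 it was 1 (Kcnma1). Treating chips as replicates counts the duplicates of a pool as separate, which leaves out the spread between pools.

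The interaction count with GCRMA (0) was 0 to 1 without 1 chip, with Kcna7 called without COUP-TFI-/- B2, where 237 of all were called. With dChip (0) it was 2 with a trend and robust prior (Kcnab2 162182_f_at and Kcnj1 103973_at), where 543 of all 12421 were called. It was 1 with quantile normalization and 1 with log2 of the value plus 16 (Kcnj1 103973_at in both), where 135 and 314 of all were called. Without 1 chip it was 0 to 1, with Kcnj1 103973_at called without wild-type A1, where 34 of all were called. These genes are named because of the calls.

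The set difference of Kcnab2 102892_at was the 1 named difference whose sign turned with a call, to -0.47 with dChip. The GCRMA set calls of Kcnma1 and Kcns1 held in all 16 alternatives tried for each, and that of Kcnj9 161799_r_at in 15 of 16, dChip being the exception. Kcna1 kept its call in 15 of 16, Kcnab3 in 12 of 16, Kcnk2 in 10 of 16, Kcnj1 103972_at in 12 of 15 and Kcnj1 103973_at in 7 of 15. Of 281 alternative values of named genotype differences that did not pass, 31 had the opposite sign.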
